A study of Homo sapiens with 16 samples.

Results

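The mitochondrial ribosomal proteins are the nuclear-encoded proteins of the ribosome inside mitochondria, named MRPL for its large and MRPS for its small subunit. The rule for the members reads a gene's symbol, which must be MRPL or MRPS, a number and at most 1 letter A, B or C, and asks for a value in all 8 cultures of the deposited table. It found 78 genes, 49 MRPL and 29 MRPS, among 15864 genes with a value in all 8 cultures and 28252 rows in the table. A symbol does not settle where a protein sits, and the place of each member in the mitoribosome was not checked. All cells were H9, an established line of human embryonic stem cells. They received a control siRNA (labelled NC) or an siRNA against OCT4, a transcription factor of pluripotent cells (labelled siOCT4), and were kept at 20% oxygen or in hypoxia at 1% oxygen. Each of the 4 groups had 2 cultures, and each culture gave a total RNA library and a library of ribosome-nascent chain complexes (RNC), the mRNAs held by ribosomes with a growing protein, 16 libraries in all. The table holds 1 number per gene and culture, the translation ratio of RNC over RNA, and its columns with "sO" in the name were taken to be those of siOCT4 cells. A ratio cannot show how far OCT4 itself was lowered, and a higher ratio can come from more RNC or from less RNA. The table gives no read counts, so the depth behind a ratio is unknown. In at least 1 culture 20 members had a recurrent ratio, a value that at least 3 genes of the culture share and that points to few reads: MRPL2, MRPL9, MRPL33, MRPL34, MRPL36, MRPL41, MRPL45, MRPL48, MRPL52, MRPL54, MRPL57, MRPL58, MRPS11, MRPS18A, MRPS18C, MRPS22, MRPS24, MRPS25, MRPS31 and MRPS33. 1 cell line was used, and no label says that the 2 cultures per group are independent, so p-values measure only the spread between these samples. All 12 of the pluripotent cell markers listed, POU5F1 (OCT4), NANOG and SOX2 among them, had a ratio in all 8 cultures, which says nothing of their level.

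Mitochondrial ribosomes translate the few proteins that the mitochondrial genome encodes, all of them core subunits of the respiratory chain and ATP synthase. Their own proteins are made in the cytosol from nuclear mRNAs and imported, so the ratios here report on the cytosolic translation of mitoribosome mRNAs and not on translation in mitochondria. Some of these proteins descend from bacterial ribosomal proteins and others were added in the mitochondrial lineage.

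The mRNAs of this family differ widely in base composition, and the ratios followed it in some groups. By GENCODE release 29, matched by symbol for all 78, the GC content of the transcripts ran from 35.0% to 71.9% with a median of 49.6%, against 49.8% for 14192 protein-coding genes tested. The transcripts were short, with a median of 1458.5 bases against 3218, and their median coding length was 585 bases against 1419. The release is on another genome build than hg19, which the submitters' processing notes name, so no coordinates are given. The same 90 coding bases, codons 68 to 97, are shown for the 3 members with the highest and then the 3 with the lowest mean ratio in control cells at 20% oxygen, with G and C in capitals:
MRPL1: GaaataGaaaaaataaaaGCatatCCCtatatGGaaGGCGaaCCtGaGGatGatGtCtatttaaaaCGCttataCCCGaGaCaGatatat
MRPL42: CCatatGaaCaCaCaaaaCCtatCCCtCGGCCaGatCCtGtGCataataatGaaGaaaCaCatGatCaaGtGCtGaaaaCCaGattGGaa
MRPL47: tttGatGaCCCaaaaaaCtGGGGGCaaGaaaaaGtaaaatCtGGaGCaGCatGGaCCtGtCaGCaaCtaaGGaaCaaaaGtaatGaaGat
MRPL28: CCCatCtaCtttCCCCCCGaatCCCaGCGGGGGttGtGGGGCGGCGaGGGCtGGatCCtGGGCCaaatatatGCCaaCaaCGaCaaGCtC
MRPS24: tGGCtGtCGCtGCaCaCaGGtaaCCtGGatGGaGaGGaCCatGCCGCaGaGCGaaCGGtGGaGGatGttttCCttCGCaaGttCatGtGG
MRPL2: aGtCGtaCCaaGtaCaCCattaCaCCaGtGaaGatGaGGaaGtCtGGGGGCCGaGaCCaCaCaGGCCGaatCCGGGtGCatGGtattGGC
G and C made up 34.4%, 41.1% and 40.0% of these bases in MRPL1 (chromosome 4), MRPL42 (chromosome 12) and MRPL47 (chromosome 3). They made up 61.1%, 56.7% and 55.6% in MRPL28 (chromosome 16), MRPS24 (chromosome 7) and MRPL2 (chromosome 6).

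In control cells at 20% oxygen the members were spread over a wide range, and MRPL1, a large subunit protein with a bacterial counterpart, was among the highest. MRPL1 had ratios of 8.56 and 8.50 in the 2 cultures. MRPL42, a large subunit protein without a bacterial counterpart, had 9.09 and 7.92. MRPL47, the counterpart of bacterial L29, had 8.48 and 5.56. At the other end were MRPL28, MRPS24 and MRPL2, the last a protein of the peptidyl transferase region. MRPL28 had ratios of 0.354 and 0.588, MRPL2 had 0.449 and 0.542, and MRPS24 had 0.167 and 0.786, so that the cultures of MRPS24 lay far apart.

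The spread of the members differed between groups more than their middle did. In control cells at 20% oxygen their median ratio was 1.34 and 1.25 in the 2 cultures and the SD of the log2 ratio over members was 1.22 and 0.94. Control cells at 1% oxygen had medians of 0.980 and 0.922 and an SD of 0.42 and 0.41. With siOCT4 at 20% oxygen the members sat close together, with medians of 1.23 and 1.29, an SD of 0.20 and 0.21, and a range from 0.904 to 1.86 over both cultures. The lowest medians of the 4 groups were those of siOCT4 cells kept at 1% oxygen, 0.748 and 0.843, with an SD of 0.91 and 0.93. Over all genes tested the SD was 1.56 and 1.25 in control cells at 20% oxygen and 0.76 and 0.78 at 1%. With siOCT4 it was 0.50 and 0.52 at 20% and 1.319 and 1.335 at 1%. The order of the groups by spread is therefore not particular to the family. The median over all genes tested was between 1.02 and 1.35 in the 8 cultures and was highest, 1.35 and 1.31, in siOCT4 cells at 1% oxygen. Accordingly 60 and 67 of the 78 members were above the median of all genes in siOCT4 cells at 20% oxygen, 45 and 44 in control cells at 20%, 35 and 32 in control cells at 1%, and 17 and 20 in siOCT4 cells at 1%.

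**Figure D1:**
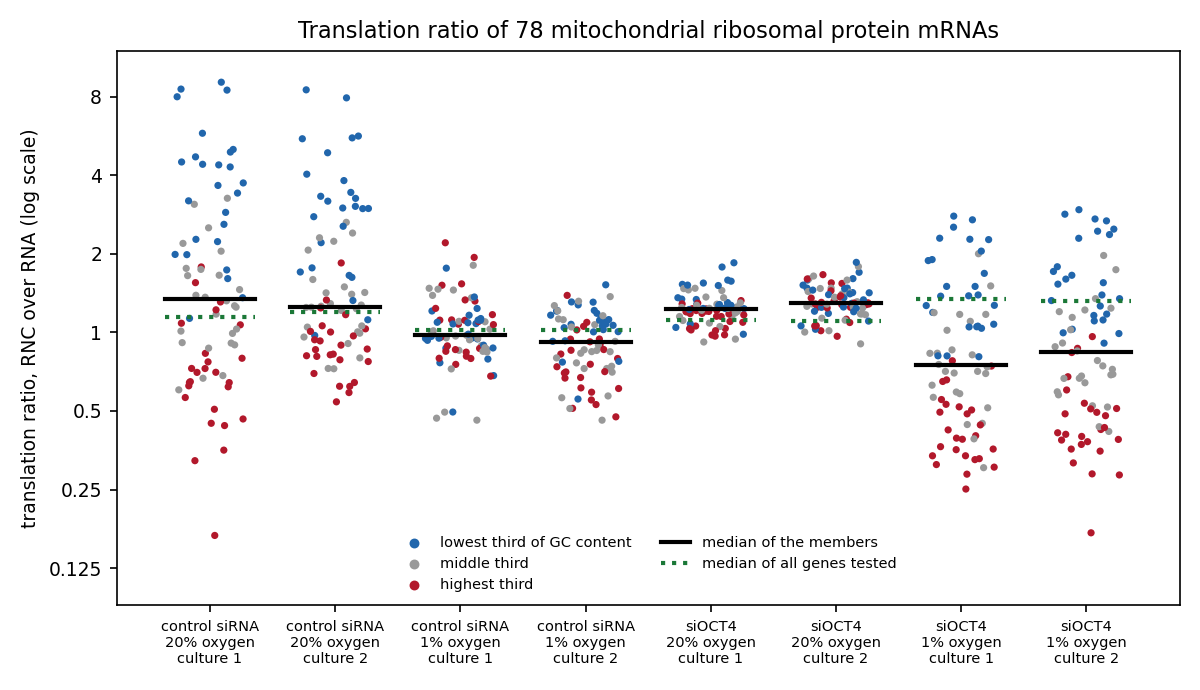
Translation ratio (RNC over RNA, log scale) of the 78 members in each of the 8 cultures, 1 point per gene, coloured by GC content in 3 classes of 26, with the members' median (black line) and the median of all genes tested (dotted line). The members' median lies below that of all genes in both cultures of siOCT4 cells at 1% oxygen and above it in both of siOCT4 cells at 20%, and low-GC members lead in control cells at 20% oxygen and siOCT4 cells at 1%.

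Where the members spread, they were ordered by GC content. Over the 78 members, which share their libraries, Spearman's rho of ratio with transcript GC content was -0.86 and -0.84 in control cells at 20% oxygen and -0.86 and -0.87 in siOCT4 cells at 1% oxygen. It was 0.09 and -0.49 in control cells at 1% and -0.57 and -0.20 in siOCT4 cells at 20%. The same held for the slope: each 10 percentage points of GC went with log2 differences of -1.21 and -0.93 in control cells at 20% and -0.93 and -0.95 in siOCT4 cells at 1%, and between -0.23 and 0.07 in the other 4 cultures. This trend is not particular to the family, since over all genes tested the slopes in the same steep cultures were -1.50, -1.13, -1.20 and -1.24. The 26 members of lowest GC (35.0% to 46.4%) had median ratios of 3.70 and 3.02 in control cells at 20% oxygen and 1.39 and 1.54 in siOCT4 cells at 1%. The 26 of highest GC (52.9% to 71.9%) had 0.675 and 0.861 in the first group and 0.398 and 0.419 in the second. With siOCT4 at 20% the 26 low-GC members had 1.28 and 1.38 and the 26 high-GC members 1.17 and 1.29. Every comparison is therefore given as deposited and GC corrected, where the corrected value is the log2 ratio left after a smooth curve of all genes' log2 ratios on GC content was taken out of each culture. The median corrected change of all genes lay between -0.05 and 0.03 in the 7 comparisons. No share of all genes was computed for calls made both ways or for calls that changed direction with the correction. Nor was it computed for fits that leave out 1 culture. Such counts of members, here and below, have nothing to be set against. Whether the trend arises in the cells or in the libraries was not tested.

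**Figure D2:**
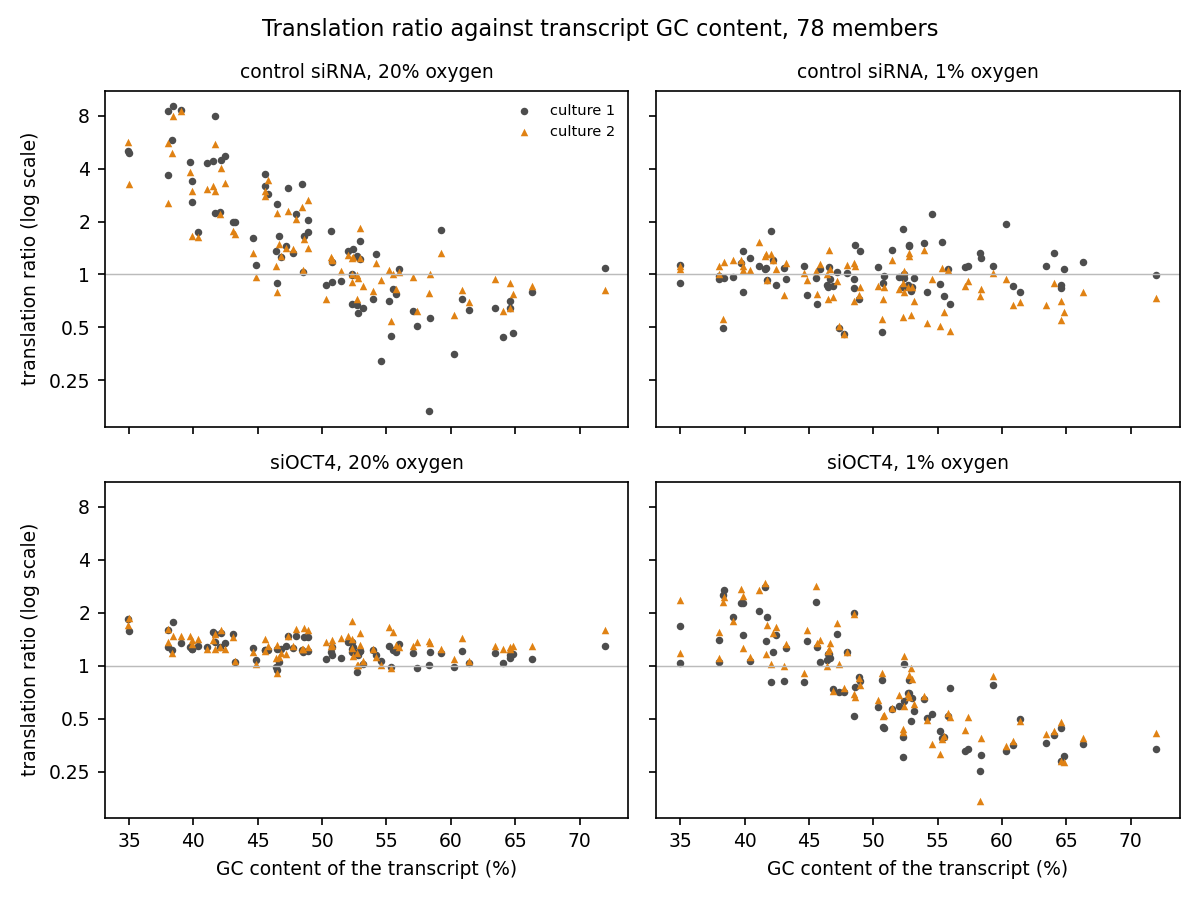
Translation ratio (log scale) against GC content of the transcript (%) for the 78 members in the 4 groups, with a symbol for each of the 2 cultures. The ratio falls steeply with GC content in control cells at 20% oxygen and in siOCT4 cells at 1% oxygen, and its trend is shallower in the other groups.

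The groups at opposite corners of the design, siOCT4 cells at 1% oxygen and control cells at 20%, had GC trends of like slope, and between them no member rose while 45 of 78 fell. The median log2 change of the members was -0.89, against 0.01 for all genes tested. Of all 15864 genes, 26.5% passed the test in this comparison (adjusted p under 0.05, limma), 13.5% higher and 13.1% lower. GC corrected, 0 members rose and 56 fell, with a median of -1.01, against 37.1% of all genes called (18.1% higher, 19.0% lower), and 42 of the 45 were called lower both ways. At an unadjusted p under 0.05 in limma, 2 members were higher and 57 lower, and GC corrected 2 and 62. The share of all genes at that unadjusted level was not computed, so these counts have nothing to be set against. Both siOCT4 cultures lay below both control cultures for 69 members and above them for 3, as they did for 31.9% and 33.0% of all genes. Corrected for transcript length as well, 1 member rose and 34 fell, with a median of -0.52, against 13.2% of all genes higher and 16.5% lower (29.7% called). Spearman's rho of ratio with transcript length over the 78 members was 0.24 and 0.18 in the control cultures at 20% and 0.47 and 0.46 in the siOCT4 cultures at 1%.

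By GC-corrected change, MRPL1, MRPL47 and MRPS17 fell most among the members called both ways. MRPL1 went from 8.56 and 8.50 in control cells at 20% oxygen to 1.90 and 1.79 in siOCT4 cells at 1%, a 4.63-fold lower ratio (log2 change -2.21 ± 0.16 SE, adjusted p = 0.003; GC corrected -1.92, adjusted p = 0.00199). MRPL47 went from 8.48 and 5.56 to 1.39 and 1.55 (log2 change -2.23 ± 0.23 SE, adjusted p = 0.00448; GC corrected -1.87). For both genes every culture of the second group was below every culture of the first. MRPS17, the counterpart of bacterial S17, went from 3.10 and 2.30 to 0.709 and 1.02 (log2 change -1.65 ± 0.23 SE, adjusted p = 0.00691; GC corrected -1.87). MRPL42 fell by 1.72 on the log2 scale (adjusted p = 0.00478; GC corrected -1.39) and MRPL39, another large subunit protein without a bacterial counterpart, by 1.89 (adjusted p = 0.00478; GC corrected -1.78). These 5 calls held without any 1 culture. Among GC-rich members, MRPL12, the protein of the flexible stalk that binds translation factors, went from 0.703 and 0.894 to 0.286 and 0.287 (log2 change -1.47 ± 0.25 SE, adjusted p = 0.0123; GC corrected -1.44). That call was lost without either culture of siOCT4 cells at 1% oxygen, with an adjusted p of 0.0669 without culture 1. The count of 45 depended on the same cultures: it was 13 without culture 1 and 20 without culture 2 of that group, and GC corrected 36 without culture 1.

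**Figure D3:**
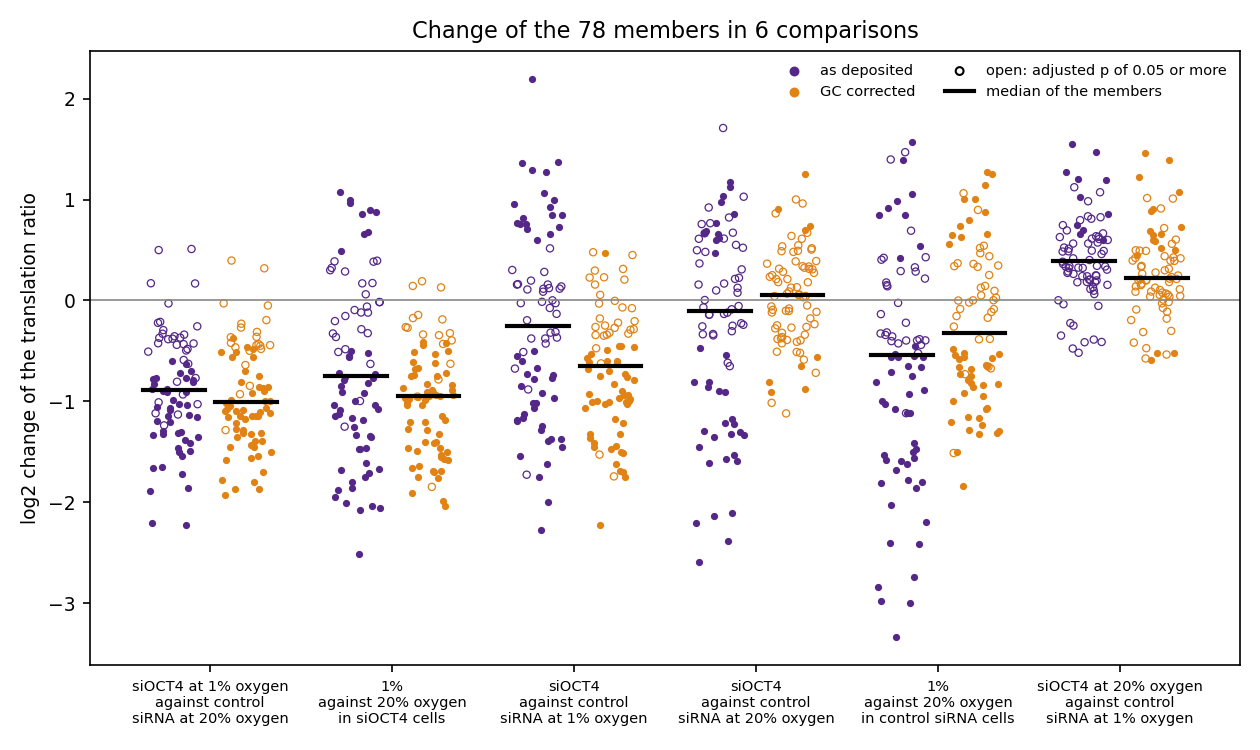
Log2 change of the translation ratio of the 78 members in 6 comparisons, as deposited and GC corrected, with filled points past the threshold and a black line at the members' median. In siOCT4 cells at 1% oxygen against control cells at 20% the members centre on -0.89 as deposited and -1.01 GC corrected, and no filled point is above 0.

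In siOCT4 cells, 1% against 20% oxygen lowered the ratio of most members and raised that of 9. Of the 78, 9 rose and 43 fell, with a median log2 change of -0.75, while the median of all genes was 0.27 and 59.0% of genes were called, 37.4% higher and 21.6% lower. GC corrected, 0 rose and 60 fell with a median of -0.94, against 37.0% of all genes called (19.0% higher, 18.1% lower), and 34 were called lower both ways. At an unadjusted p under 0.05 in limma, GC corrected, it was 0 and 67, with no share of all genes computed at that level. With length corrected as well, 1 rose and 39 fell, against 29.4% of all genes called (13.7% higher, 15.6% lower). With each culture centred on its median gene 5 rose and 49 fell, against 60.5% called (31.4% higher, 29.1% lower). The 26 members of highest GC held 0 called higher and 24 lower, the middle 26 held 1 and 17, and the 26 of lowest GC held 8 and 2. The count of 52 was 34 without culture 2 of siOCT4 cells at 20% oxygen, and the corrected count of 60 was then 33.

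MRPL12 and MRPS34 were among the members that fell most between these groups. MRPL12 had 1.15 and 1.28 at 20% oxygen and 0.286 and 0.287 at 1%, 4.23-fold lower (log2 change -2.08 ± 0.25 SE, adjusted p = 0.00129; GC corrected -0.93, adjusted p = 0.00765). MRPS34, a small subunit protein mutated in an inherited Leigh-like disease, had 1.17 and 1.29 at 20% and 0.305 and 0.284 at 1%, 4.16-fold lower (log2 change -2.06 ± 0.35 SE, adjusted p = 0.00411; GC corrected -0.88, adjusted p = 0.00609). In both genes the 1% cultures lay close together and the groups did not overlap. The corrected call of MRPL12 was lost without culture 2 of siOCT4 cells at 20% (adjusted p = 0.0551). MRPS24, the counterpart of bacterial S3, had 1.02 and 1.38 at 20% and 0.251 and 0.171 at 1%, but its SE of 0.75 was large (log2 change -2.52, adjusted p = 0.0305). It lost its call without any 1 of the 4 siOCT4 cultures, with adjusted p up to 0.124 without culture 2 at 20% oxygen, and its corrected change of -1.85 was not called (adjusted p = 0.0658).

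MRPL53 and MRPL52, both large subunit proteins without a bacterial counterpart, changed by as much with the correction as without it. MRPL53 had 1.20 and 1.79 at 20% and 0.303 and 0.417 at 1% (log2 change -2.04 ± 0.30 SE, adjusted p = 0.00231; GC corrected -2.04, adjusted p = 0.00573). MRPL52 had 1.36 and 1.43 at 20% and 0.391 and 0.435 at 1% (log2 change -1.75 ± 0.34 SE, adjusted p = 0.00669; GC corrected -1.76, adjusted p = 0.0107). MRPS28 had 1.52 and 1.45 at 20% and 0.814 and 0.997 at 1% (log2 change -0.72, adjusted p = 0.0273; GC corrected -1.91, adjusted p = 0.00421). The deposited call of MRPS28 was lost without culture 1 of siOCT4 cells at 1%, where its adjusted p was 0.130, and without either culture at 20%. MRPS16, whose mutation was an early example of inherited mitoribosome disease, fell by 0.73 on the log2 scale (adjusted p = 0.005; GC corrected -1.50, adjusted p = 0.00272). MRPS12, of the decoding centre, went from 1.20 and 1.35 to 0.312 and 0.387 (log2 change -1.88, adjusted p = 0.00492; GC corrected -1.20, adjusted p = 0.0104). The corrected calls of MRPL52 and MRPS12 were lost without culture 2 of siOCT4 cells at 20% (adjusted p = 0.065 and 0.0673) or culture 1 at 1%, and that of MRPL52 also without culture 1 at 20%.

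Of the 9 members that rose in this comparison, 8 were among the 26 of lowest GC content, and MRPS22, at 48.5% GC, was the other; 0 of the 9 were called higher GC corrected. MRPS9, the counterpart of bacterial S9, had 1.22 and 1.21 at 20% and 2.30 and 2.84 at 1% (log2 change 1.07 ± 0.16 SE, adjusted p = 0.00249), and its corrected change was 0.14 (adjusted p = 0.432). MRPL19 rose from 1.24 and 1.18 to 2.53 and 2.29 (log2 change 1.00, adjusted p = 0.00252) and was called lower GC corrected (-0.42, adjusted p = 0.0333), a corrected call lost without any 1 siOCT4 culture or culture 2 of control cells at 20%, with adjusted p up to 0.146 without culture 2 of siOCT4 cells at 20%. MRPS10 rose from 1.55 and 1.40 to 2.79 and 2.95 (log2 change 0.97, adjusted p = 0.00774), with a corrected change of -0.34 (adjusted p = 0.0766). The deposited call of MRPS10 was lost without culture 2 of siOCT4 cells at 20% (adjusted p = 0.0519). In all, 5 members called higher as deposited were called lower GC corrected. At the GC-rich extreme MRPL41, at 71.9% GC, had 1.29 and 1.60 at 20% and 0.337 and 0.413 at 1% (log2 change -1.95, adjusted p = 0.00142), with a corrected change of -0.27 (adjusted p = 0.723).

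At 1% oxygen, siOCT4 against control siRNA gave changes in both directions: 19 members rose and 29 fell. The median log2 change was -0.25, below the 0.42 of all genes, of which 61.0% were called, 41.1% higher and 19.9% lower. With each culture centred on its median gene, 6 members rose and 42 fell, against 61.7% of genes called (32.5% higher, 29.2% lower). GC corrected, 1 rose and 47 fell with a median of -0.65, against 44.4% of all genes called (21.7% higher, 22.7% lower). With length as well 6 rose and 27 fell, against 40.8% called (19.0% higher, 21.8% lower). 7 members called higher as deposited were called lower GC corrected. This comparison and the other comparisons above share the cultures of siOCT4 cells at 1% oxygen. The count of 48 was 31 without culture 1 of control cells at 1%, and the corrected count of 48 was 30 without that culture and 28 without culture 1 of siOCT4 cells at 1%.

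MRPL19, a large subunit protein with a bacterial counterpart, rose most. It had 0.495 and 0.556 in control cells and 2.53 and 2.29 in siOCT4 cells at 1% oxygen, 4.59-fold higher (log2 change 2.20 ± 0.15 SE, adjusted p = 0.000305), and it was the 1 member still called higher GC corrected (0.47, adjusted p = 0.0187). That corrected call was lost without culture 1 of siOCT4 cells at 1% (adjusted p = 0.0981) or culture 2 of control cells at 1%. MRPL35 rose from 0.791 and 1.06 to 2.27 and 2.49 (log2 change 1.37, adjusted p = 0.00144), with a corrected change of -0.29 (adjusted p = 0.0832). MRPS9 rose from 0.950 and 1.04 to 2.30 and 2.84 (log2 change 1.36, adjusted p = 0.000929; GC corrected 0.30, adjusted p = 0.12). MRPL44, related to RNase III enzymes and mutated in an inherited cardiomyopathy, rose from 0.765 and 0.929 to 1.38 and 1.60 (log2 change 0.82, adjusted p = 0.00691; GC corrected -0.34, adjusted p = 0.0722). All 4 are AT-rich, with transcript GC contents of 38.3%, 39.9%, 45.5% and 44.9%.

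Among those that fell, MRPL2 and MRPL28 fell with and without the correction. MRPL2 had 1.53 and 1.09 in control and 0.390 and 0.381 in siOCT4 cells at 1% oxygen, 3.36-fold lower (log2 change -1.75 ± 0.21 SE, adjusted p = 0.00104; GC corrected -1.47, adjusted p = 0.00134). MRPL28 had 1.94 and 0.944 in control and 0.326 and 0.351 in siOCT4 cells (log2 change -2.00 ± 0.40 SE, adjusted p = 0.00656; GC corrected -1.32, adjusted p = 0.00893). MRPL10, which carries MRPL12 in the stalk, fell by 1.13 on the log2 scale (adjusted p = 0.000835; GC corrected -1.0), from 1.52 and 1.39 to 0.649 and 0.676. MRPL52 fell by 1.62 (adjusted p = 0.00823; GC corrected -1.69). MRPL33, an AT-rich member, fell from 1.76 and 1.31 to 0.813 and 1.03 (log2 change -0.73, adjusted p = 0.0192), and its corrected change was -2.22 (adjusted p = 0.00166). The deposited call of MRPL33 was lost without culture 1 of siOCT4 cells at 1%, with an adjusted p of 0.104, or without culture 1 of control cells at 1%. MRPS24 had 1.33 and 0.755 in control and 0.251 and 0.171 in siOCT4 cells (log2 change -2.28 ± 0.75 SE, adjusted p = 0.041; GC corrected -1.74, adjusted p = 0.068), a call lost in 6 of 8 fits without 1 culture, all but those without a control culture at 20% oxygen, with adjusted p up to 0.176 without culture 1 of control cells at 1%.

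At 20% oxygen, siOCT4 against control siRNA was called for 47.4% of the members, near the 53.3% of all genes. This share is no result about the family. Falls were called among AT-rich members, which stood high in the same control cultures that form the baseline. Of the 78, 12 rose and 25 fell, with a median log2 change of -0.10 against -0.09 for all genes, and 53.3% of all genes were called, 19.2% higher and 34.1% lower. The 26 members of lowest GC held 0 called higher and 20 lower, and the 26 of highest GC 10 and 0. For this and the other comparisons, shares of all genes in such GC classes were not computed. GC corrected, 4 rose and 5 fell, against 14.7% of all genes called (7.25% higher, 7.46% lower), and 5 were called lower both ways and 0 higher. None of the 9 corrected calls held in every fit without 1 culture: their number was 0 without either siOCT4 culture at 20% oxygen, 2 without culture 1 of control cells at 20%, and 4 without either siOCT4 culture at 1%. The deposited count of 37 was 21 without culture 2 of siOCT4 cells at 20%.

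MRPL1 went from 8.56 and 8.50 in control to 1.34 and 1.48 in siOCT4 cells at 20% oxygen, 6.06-fold lower (log2 change -2.60 ± 0.16 SE, adjusted p = 0.000653; GC corrected -0.91, adjusted p = 0.0186). MRPL42 went from 9.09 and 7.92 to 1.78 and 1.48 (log2 change -2.39 ± 0.18 SE, adjusted p = 0.000653; GC corrected -0.65). MRPL39 went from 8.0 and 5.52 to 1.36 and 1.52 (log2 change -2.21 ± 0.20 SE, adjusted p = 0.000705; GC corrected -0.81). All 3 had no overlap between the groups. MRPS22, a small subunit protein mutated in inherited disease, fell from 3.27 and 2.40 to 1.24 and 1.25 (log2 change -1.17, adjusted p = 0.00394; GC corrected -0.88, adjusted p = 0.034). Of the members that rose, MRPL28 had 0.354 and 0.588 in control and 0.979 and 1.09 in siOCT4 cells (log2 change 1.18, adjusted p = 0.0492; GC corrected 0.34, adjusted p = 0.389), a call lost in 5 of 8 fits without 1 culture, those without any 1 siOCT4 culture or culture 1 of control cells at 20% oxygen, with adjusted p up to 0.207 without the last. MRPL4, of the polypeptide exit tunnel, had 0.440 and 0.621 in control and 1.04 and 1.25 in siOCT4 cells (log2 change 1.12, adjusted p = 0.0159). That call was lost without culture 2 of siOCT4 cells at 20% (adjusted p = 0.0935) or culture 1 of control cells at 20%, and the corrected change was 0.03 (adjusted p = 0.89).

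In control cells, 1% against 20% oxygen lowered 40 members and raised 9, with a median log2 change of -0.54 against -0.31 for all genes. Of all genes 60.2% were called, 20.5% higher and 39.6% lower. GC corrected, 12 members rose and 33 fell with a median of -0.32, against 46.1% of all genes called, 23.1% in each direction. Both ways, 6 were called higher and 22 lower, and 5 changed from called lower to called higher. Corrected for length as well, 13 rose and 31 fell, against 47.0% of genes called (23.4% higher, 23.6% lower). This comparison and those of siOCT4 cells with control cells at 20% oxygen share the control cultures at 20%.

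The largest changes were those of AT-rich members that stood high at 20%, the baseline of this comparison. MRPL19 went from 5.80 and 4.88 at 20% to 0.495 and 0.556 at 1% oxygen, 10.1-fold lower (log2 change -3.34 ± 0.15 SE, adjusted p = 0.000152; GC corrected -1.28, adjusted p = 0.000916). MRPL42 went from 9.09 and 7.92 to 0.950 and 1.18 (log2 change -3.00 ± 0.18 SE, adjusted p = 0.00016; GC corrected -0.95, adjusted p = 0.00235). MRPL1 went from 8.56 and 8.50 to 0.966 and 1.21 (log2 change -2.98 ± 0.16 SE, adjusted p = 0.000152; GC corrected -1.0, adjusted p = 0.00258). These 3 calls held without any 1 culture, deposited and GC corrected. MRPS17, at 47.3% GC, went from 3.10 and 2.30 to 0.495 and 0.511 (log2 change -2.41, adjusted p = 0.000381; GC corrected -1.84, adjusted p = 0.00184). MRPL16, close to the binding sites of tRNA, went from 1.76 and 1.25 to 0.469 and 0.562 (log2 change -1.53, adjusted p = 0.00131; GC corrected -1.50, adjusted p = 0.00328). MRPL43 went from 1.07 and 1.03 to 0.680 and 0.475 (log2 change -0.89, adjusted p = 0.0238; GC corrected -1.31), and its deposited call was lost without either control culture at 20% or without culture 2 at 1% (adjusted p = 0.0972).

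Some members went the other way in control cells at 1% oxygen. MRPL2 rose from 0.449 and 0.542 to 1.53 and 1.09 (log2 change 1.39 ± 0.21 SE, adjusted p = 0.00231; GC corrected 1.01, adjusted p = 0.00305). MRPL10 rose from 0.728 and 0.809 to 1.52 and 1.39 (log2 change 0.92, adjusted p = 0.00162; GC corrected 0.63, adjusted p = 0.0038). Both held without any 1 culture, deposited and GC corrected. MRPL28 rose from 0.354 and 0.588 to 1.94 and 0.944 (log2 change 1.57 ± 0.40 SE, adjusted p = 0.0167; GC corrected 0.88, adjusted p = 0.0334) and MRPL4 from 0.440 and 0.621 to 1.32 and 0.897 (log2 change 1.06, adjusted p = 0.0163; GC corrected 0.14, adjusted p = 0.413). Both deposited calls were lost without culture 1 of control cells at 20% (adjusted p = 0.0796 for MRPL28) or culture 1 at 1% (0.0812 for MRPL4). The corrected call of MRPL28 was lost in 7 of 8 fits, all but that without culture 2 of control cells at 1%, with adjusted p up to 0.132 without culture 1 of control cells at 20%. MRPS27, a small subunit protein with pentatricopeptide repeats, went from 0.896 and 0.799 to 1.10 and 1.37 (log2 change 0.54, adjusted p = 0.0266; GC corrected 1.26, adjusted p = 0.00103). Its corrected call held in every fit without 1 culture, while the deposited one was lost in 6 of 8, all but those without culture 1 of either control group, with adjusted p up to 0.105 without culture 2 of control cells at 1%.

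Between the 2 groups with shallower GC trends, siOCT4 cells at 20% oxygen and control cells at 1%, 11 members were higher and 0 lower. All 11 stayed called GC corrected. In either direction 14.1% of the members were called and 23.1% GC corrected, near the 11.7% and 22.7% of all genes. These shares are no result about the family. The members' median log2 difference was 0.39, against 0.12 for all genes, and 11.7% of genes were called, 8.78% higher and 2.91% lower. GC corrected 15 were higher and 3 lower, against 22.7% of genes called (10.8% higher, 11.9% lower). Median-centred 6 were higher and 1 lower, against 10.1% of genes called (5.97% higher, 4.16% lower). At an unadjusted p under 0.05 in limma, 34 were higher and 2 lower as deposited, with no share of all genes computed at that level. MRPS17 had 1.48 and 1.47 in the siOCT4 cells and 0.495 and 0.511 in the control cells (log2 difference 1.55, adjusted p = 0.0165; GC corrected 1.47). MRPL17, of the exit tunnel region, had 1.27 and 1.29 against 0.461 and 0.461 (log2 difference 1.47, adjusted p = 0.00927; GC corrected 1.40), and MRPL16 had 1.20 and 1.29 against 0.469 and 0.562 (log2 difference 1.27, adjusted p = 0.0206; GC corrected 1.23). None of these deposited calls held throughout: each was lost without either siOCT4 culture at 20% oxygen, and those of MRPS17 and MRPL16 also without either control culture at 1%, with adjusted p up to 0.111 for MRPS17, 0.0912 for MRPL17 and 0.133 for MRPL16. The corrected calls of MRPS17 and MRPL16 were lost without the same 4 cultures, with adjusted p up to 0.0707 and 0.095, and that of MRPL17 held in every such fit. Without those 2 siOCT4 cultures in turn the count of 11 was 0 each time, without the control cultures at 1% it was 1 and 2, and without the siOCT4 cultures at 1% it was 4 and 5. The corrected count of 18 was 2 and 1, 6 and 4, and 9 and 9 in the same order.

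**Figure D4:**
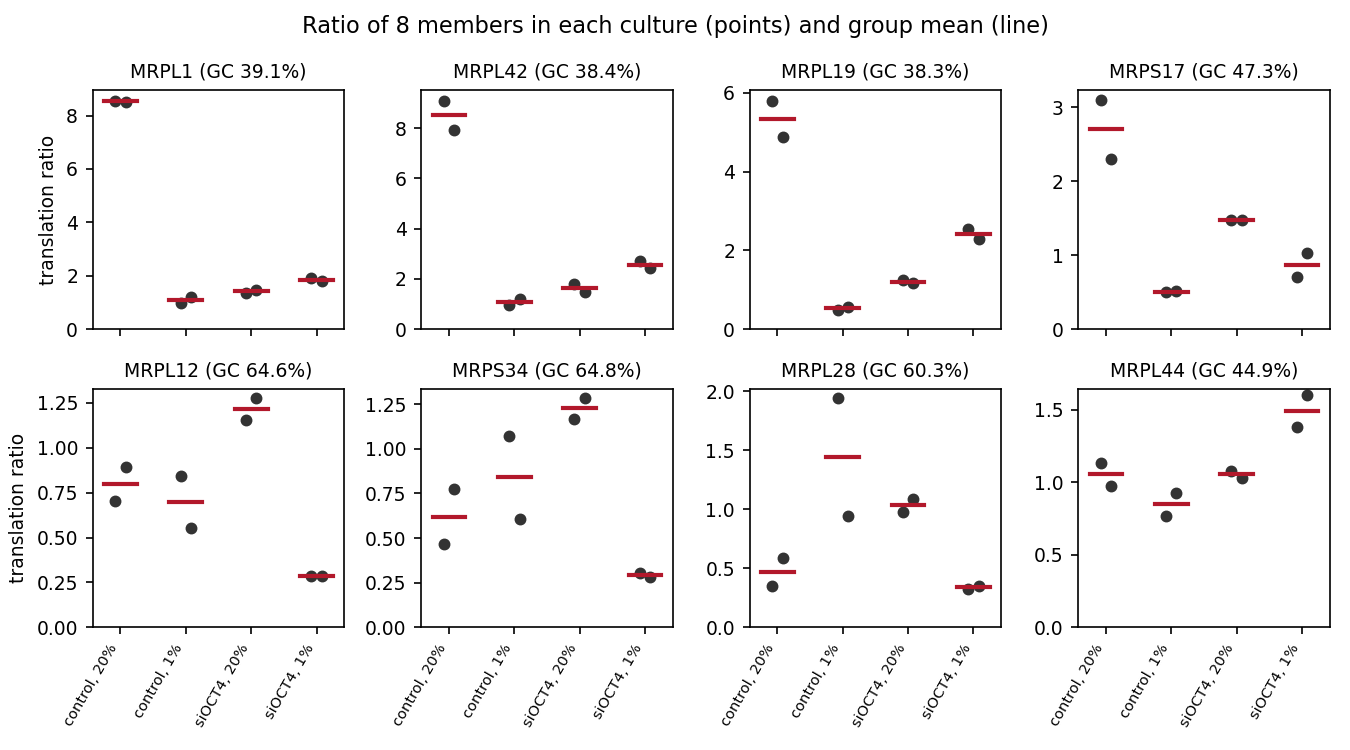
Translation ratio of 8 members in the 4 groups (siRNA and oxygen), with a point for each of the 2 cultures and a line at the group mean; each panel has its own axis from 0. MRPL1, MRPL42, MRPL19 and MRPS17 are highest in control cells at 20% oxygen, MRPL12 and MRPS34 are lowest in siOCT4 cells at 1%, and MRPL44 stays between 0.765 and 1.60.

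By symbol, members of both kinds fell in siOCT4 cells at 1% oxygen. Against control cells at 20%, where 13.1% of all genes were called lower and 19.0% GC corrected, 33 of 49 MRPL and 12 of 29 MRPS members fell, with median log2 changes of -1.04 and -0.77, and GC corrected 40 and 16 fell. Against siOCT4 cells at 20%, 27 MRPL fell and 4 rose, and 16 MRPS fell and 5 rose, while GC corrected 39 MRPL and 21 MRPS fell and 0 rose. Of all genes, 21.6% were lower and 37.4% higher in that comparison, and GC corrected 18.1% and 19.0%. Of the 28 large subunit members listed as having a bacterial counterpart, 19 fell against control cells at 20%, as did 14 of the 21 not listed. MRPL47, which has a bacterial counterpart, was left off that list and is counted among the 21 and the 14. Of the MRPS members it was 8 of 16 with a counterpart and 4 of 11 without, MRPS18A and MRPS18B being counted in neither. A symbol need not match the subunit in which a protein sits, so the MRPL and MRPS counts are not counts by subunit. The difference between MRPL and MRPS members, or between the older and newer proteins, was not tested.

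MRPS18A, MRPS18B and MRPS18C are 3 proteins related to bacterial S18, each from its own gene. In the human mitoribosome MRPS18B and MRPS18C are part of the small subunit, while MRPS18A, despite its name, sits in the large subunit. Their mRNAs differ in base composition. The same codons 68 to 97 show this, with G and C in capitals:
MRPS18A: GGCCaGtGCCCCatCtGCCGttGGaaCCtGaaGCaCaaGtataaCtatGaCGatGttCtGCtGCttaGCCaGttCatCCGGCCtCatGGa
MRPS18B: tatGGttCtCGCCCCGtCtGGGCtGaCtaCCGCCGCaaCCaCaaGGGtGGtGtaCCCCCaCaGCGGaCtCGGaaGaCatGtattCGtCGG
MRPS18C: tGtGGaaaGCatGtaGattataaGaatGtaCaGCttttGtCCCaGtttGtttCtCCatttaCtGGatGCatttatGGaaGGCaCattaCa
G and C made up 53.3%, 61.1% and 36.7% of these bases in MRPS18A, MRPS18B and MRPS18C. Whole transcripts held 57.3%, 52.7% and 38.0% GC. MRPS18C was lowest both ways, while the order of MRPS18A and MRPS18B differed between these bases and the whole transcript. MRPS18C, the AT-rich paralog, had ratios of 3.66 and 2.55 in control cells at 20% oxygen, 0.985 and 1.0 at 1%, 1.27 and 1.36 with siOCT4 at 20%, and 1.05 and 1.11 with siOCT4 at 1%. MRPS18A had 0.508 and 0.622, then 1.11 and 0.921, then 0.968 and 1.37, then 0.337 and 0.509 in the same order, and MRPS18B had 0.668 and 0.728, then 1.45 and 1.32, then 0.919 and 1.02, then 0.699 and 0.667. So MRPS18C was the highest of the 3 in control cells at 20% oxygen and in siOCT4 cells at 1%, and MRPS18B the highest in control cells at 1%.

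The paralogs changed in opposite directions with siOCT4 at 20% oxygen as deposited and not GC corrected. MRPS18A rose by a log2 change of 1.03 (adjusted p = 0.0264) while MRPS18C fell by 1.22 on the log2 scale (adjusted p = 0.00348), and the corrected changes were 0.39 and 0.55 (adjusted p = 0.343 and 0.0759). The rise of MRPS18A was lost without culture 2 of siOCT4 cells at 20% (adjusted p = 0.143) or culture 1 of control cells at 20%. At 1% oxygen siOCT4 lowered MRPS18A (log2 change -1.29, adjusted p = 0.00988; GC corrected -0.83, adjusted p = 0.0443) and MRPS18B (-1.02, adjusted p = 0.00148; GC corrected -1.03, adjusted p = 0.00146). The call of MRPS18A was lost without culture 1 of control cells at 1% (adjusted p = 0.057), and its corrected call without either control culture at 20%, either at 1% or culture 1 of siOCT4 cells at 1% (adjusted p up to 0.162, without the last), while both calls of MRPS18B held in every such fit. In siOCT4 cells at 1% against 20% oxygen, MRPS18A fell by 1.47 on the log2 scale (adjusted p = 0.00649; GC corrected -0.89, adjusted p = 0.0424) and MRPS18B by 0.50 (adjusted p = 0.0227; GC corrected -0.44, adjusted p = 0.0222). Both calls of MRPS18B were lost without any 1 siOCT4 culture, with adjusted p up to 0.133 deposited and 0.132 corrected, without culture 2 at 20%. The corrected call of MRPS18A was lost in all such fits but that without culture 2 of siOCT4 cells at 1%, with adjusted p up to 0.188 without culture 2 at 20%. MRPS18C fell in siOCT4 cells at 1% against control cells at 20% (log2 change -1.50, adjusted p = 0.00615; GC corrected -1.15).

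Other named members stood highest in control cells at 20% oxygen or varied little. MRPL3, near the peptidyl transferase centre, had 4.71 and 3.32 in control cells at 20% oxygen, 0.870 and 1.07 at 1%, 1.34 and 1.25 with siOCT4 at 20%, and 1.5 and 1.66 with siOCT4 at 1%. MRPS36, at 35.0% GC, had 4.91 and 3.26, then 1.13 and 1.08, then 1.57 and 1.86, then 1.04 and 1.18. Both stood highest in control cells at 20%, without overlap with the other groups. MRPL45, which ties the ribosome to the inner membrane, had 1.66 and 1.49, then 0.937 and 1.07, then 1.05 and 1.11, then 1.10 and 1.35, so its highest ratio was less far above its lowest than in MRPL3 or MRPS36.

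Mitoribosomal proteins with other names went along in part. CHCHD1 and GADD45GIP1, both mitoribosome subunits, fell in siOCT4 cells at 1% against control cells at 20% oxygen (log2 changes -1.38, adjusted p = 0.00441, and -0.95, adjusted p = 0.0324), also GC corrected (-1.57 and -0.96). DAP3 and PTCD3 of the small subunit had changes of -0.01 (adjusted p = 0.981) and 0.11 (adjusted p = 0.776) there, and AURKAIP1 had -0.42 (adjusted p = 0.662), so 2 of 5 fell. In siOCT4 cells at 1% against 20%, PTCD3 rose by a log2 change of 1.67 (adjusted p = 0.0026; GC corrected 0.48, adjusted p = 0.0761), against the direction of most members.

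The factors that work with the mitoribosome are set here beside the share of all genes, which in siOCT4 cells at 1% against control cells at 20% oxygen was 13.5% higher and 13.1% lower, and GC corrected 18.1% and 19.0%. Of 15 mitochondrial translation factors tested, 0 rose and 2 fell, and GC corrected 1 rose and 4 fell, with medians of -0.18 and -0.14. As deposited, 0 rose and 4 fell at an unadjusted p under 0.05 in limma, with no share of all genes computed at that level. Of 28 mitoribosome assembly and rRNA modification factors, 2 rose and 2 fell, and GC corrected 2 and 10, with medians of -0.29 and -0.28. Of 13 genes of mitochondrial transcription and mRNA maintenance, 1 rose and 3 fell, and GC corrected 3 and 3. For the members these counts were 0 and 45 of 78, and GC corrected 0 and 56. In siOCT4 cells at 1% against 20%, 8 translation factors rose and 3 fell as deposited, against 37.4% and 21.6% of all genes, and 2 rose and 6 fell GC corrected, against 19.0% and 18.1%.

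The genes of the cytosolic ribosome and of the respiratory chain moved to the same side as the members in siOCT4 cells at 1% against control cells at 20%. Of 81 cytosolic ribosomal protein genes 0 rose and 69 fell, with a median log2 change of -1.33, and of 80 nuclear-encoded respiratory chain subunits 1 rose and 57 fell, with a median of -1.14, against the same 13.5% and 13.1% of all genes. GC corrected the medians were -1.53 and -1.20 against -1.01 for the members, and with length corrected as well -1.12 and -0.70 against -0.52. In siOCT4 against control cells at 1% oxygen, 19 of 78 members rose as deposited, while 0 of 81 cytosolic ribosomal protein genes and 5 of 80 respiratory chain genes did, against 41.1% of all genes. GC corrected these numbers were 1, 0 and 1, against 21.7%. The differences between the 3 families were not tested.

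The interaction of siOCT4 with oxygen was called for 76.9% of the members and 51.3% GC corrected, near the 68.7% and 43.7% of all genes, so these shares are no result about the family. This term, the siOCT4 change at 1% oxygen minus that at 20%, passed the test for 60 of 78 members, 28 higher and 32 lower, against 42.5% higher and 26.2% lower. With each culture centred on its median gene it was 20 higher and 35 lower, against 71.1% of all genes (37.7% higher, 33.4% lower). GC corrected it was 4 higher and 36 lower, against 43.7% of all genes (22.3% higher, 21.4% lower), with a median of -0.66. With length corrected as well it was 10 higher and 28 lower, with a median of -0.34 and no share of all genes computed. With GC correction alone 11 members changed from called higher to called lower, also with no share of all genes computed. The 26 members of lowest GC held 20 called higher and 0 lower as deposited, and the 26 of highest GC 0 and 21. The corrected count of 40 was 28 without culture 1 of control cells or culture 1 of siOCT4 cells at 1% oxygen, and 26 without culture 2 of siOCT4 cells at 20%.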

How the data were processed

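The deposited table gives 1 translation ratio per gene and culture, which the authors formed as RNC over RNA. Per the submitters' processing notes edgeR and hg19 were used; their role, the mapper, filters and normalization: not given in the sources used. The log2 ratio of 15864 genes was fitted with limma 3.58.1 (trend and robust settings, statmod 1.5.0, R 4.3.3), with 4 group means and 4 residual degrees of freedom, with two-sided p-values adjusted over all genes after Benjamini and Hochberg and a threshold of 0.05. The fit was tested on simulated data. GC correction took residuals from a spline with 6 degrees of freedom on GC content in each culture (15261 genes), with GENCODE 29 transcripts matched by symbol. The alternatives were median centring, length correction, a replicate block, pseudocounts, other filters, and leaving out each culture. Shares of all genes were computed only for some fits with median centring or length correction. For the other alternatives it is unknown whether all genes gained or lost calls alike.

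The members, lists and tests were chosen with earlier results of these data known. Named were the 3 members per direction with the largest change past the threshold without overlap in each of 4 comparisons. The 3 with the largest corrected change called both ways and the S18 paralogs were named too. So were further members picked by symbol, and the 3 highest and lowest in control cells at 20% oxygen.

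A ratio that at least 3 genes of a culture share within a relative tolerance of 2e-06 points to few reads: 20 members and 7698 tested genes had one.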

Additional observations from a re-analysis of the deposited data

Results flagged for a closer look

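The interaction of siOCT4 with 1% oxygen passed the test for 60 of 78 members, against 68.7% of all genes, and for 40 GC corrected, against 43.7%. Shares in either direction this near to those of all genes are no result about the family. By direction, 4 members were higher and 36 lower GC corrected, against 22.3% and 21.4% of all genes. This split was weaker with length corrected as well: 10 were higher and 28 lower, and the median moved from -0.66 to -0.34. No share of all genes was computed for that fit. The values of single members follow. Of the 3 members called higher both ways MRPL19 had the largest log2 interaction, 4.34 (adjusted p = 8.04e-05; GC corrected 0.86, adjusted p = 0.00791): with siOCT4 its ratio was lower at 20% oxygen and higher at 1%. MRPS9 had 2.65 (adjusted p = 0.000178; GC corrected 0.81) and MRPS22 had 2.10 (adjusted p = 0.000864; GC corrected 1.19). The corrected calls of both were lost without culture 1 of siOCT4 cells at 20% oxygen (adjusted p = 0.0636 and 0.053) or culture 1 of control cells at 1%, and that of MRPS9 also without culture 2 of either group. In the other direction, MRPL2 had -2.73 (adjusted p = 0.00047; GC corrected -1.95) and MRPL52 had -2.45 (adjusted p = 0.00529; GC corrected -2.30). MRPS21, the counterpart of bacterial S21, had -0.78 (adjusted p = 0.0307; GC corrected -1.66, adjusted p = 0.00433), and its deposited call was lost in 7 of 8 fits without 1 culture, all but that without culture 2 of control cells at 1% oxygen, with adjusted p up to 0.101 without culture 2 of siOCT4 cells at 20%.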

How the results depend on the processing

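With GC correction the number of members called for siOCT4 at 20% oxygen went from 37 to 9, also with length, and that of siOCT4 at 20% against control at 1% oxygen from 11 to 18, with length 20. With length added, the interaction was called for 38 members, and siOCT4 at 1% against control at 20% for 35. Median centring gave 7 for siOCT4 at 20% against control at 1%, and genes without recurrent ratios, a fit that leaves out 20 members, gave 27. Fits of only the 2 groups compared gave 32 for 1% oxygen in control cells, 23 for siOCT4 at 1% against control at 20%, and 4 for siOCT4 at 20% against control at 1%. MRPL19 in siOCT4 cells at 1% against 20% oxygen changed direction when corrected for GC (-0.42) or GC and length (-0.36), as did MRPS10 (-0.34 and -0.048). So did MRPL35 (-0.29 and -0.28) and MRPL44 (-0.34 and -0.0127) with siOCT4 at 1%, and MRPS18C (0.55 and 0.56) with siOCT4 at 20%. The cause was not tested.

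Without 1 culture the counts ranged as follows, deposited and then GC corrected: siOCT4 at 20%, 21 to 44 and 0 to 11. For siOCT4 at 1% they were 31 to 52 and 28 to 50, for 1% oxygen in control cells 33 to 49 and 31 to 40, and for 1% oxygen in siOCT4 cells 34 to 54 and 33 to 60. The interaction gave 45 to 60 and 26 to 43, siOCT4 at 1% against control at 20% gave 13 to 47 and 36 to 53, and siOCT4 at 20% against control at 1% gave 0 to 13 and 1 to 16.

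Deviations of replicate 1 correlated between groups at -0.233 to 0.0225, which gave no sign that replicate numbers pair the samples. With 2 cultures per group this cannot settle it. With a replicate block the count was 31 for siOCT4 at 20% oxygen and 3 for siOCT4 at 20% against control at 1%. GC corrected with the replicate block these were 2 and 9, and the other counts stayed within 1.5 times.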
